A study of Mus musculus with 46 samples.

Results

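The 4 Hox clusters of the mouse genome were followed through 46 mouse synovial sarcoma (SyS) tumors. The members were the Hox protein-coding genes named in a fixed list of 38, which are 38 of the 56854 genes found in both deposited count tables. HoxA held 10 of them, HoxB 10, HoxC 9 and HoxD 9. Choice of a gene rested on its name and not on its level in any tumor.

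All tumors expressed a human fusion oncogene from the Rosa26 locus, either SS18::SSX2 (hSS2) or SS18::SSX1 (hSS1), and were started in the limb by injecting TATCre, a cell-permeable Cre protein, at 8 days of life. Cre here was not driven by a promoter of 1 cell type, so the tumor began in whichever cells took it up, and the bulk tumor also held host cells. The hSS2 tumors were 13 controls with the fusion alone, 8 with conditional knockout of Pbrm1 (Pbrm1-fl), 8 of Arid1a (Arid1a-fl) and 8 of Arid1b (Arid1b-fl). The hSS1 tumors were 5 controls and 4 Pbrm1-fl. Pbrm1 encodes a subunit of the PBAF form of the SWI/SNF chromatin remodeler, and Arid1a and Arid1b encode alternative subunits of the CBAF form. The comparisons ask how loss of either form changes transcription in a tumor whose fusion protein sits in this remodeler.

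Hox genes encode homeodomain transcription factors that give cells their position along the body axis and along the limb. Within a cluster they lie in order, and the genes at one end are used early and anteriorly while those at the other end are used late, posteriorly and distally. Polycomb complexes keep the clusters silent where they are not used, SWI/SNF remodelers oppose Polycomb, and Hox proteins bind DNA together with TALE cofactors of the Pbx and Meis families.

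Each tumor was 1 RNA-seq library of 10137668 to 21294657 counted fragments, and nothing in the labels says more of the animals, so p-values measure the spread between these tumors. The median level of each targeted gene was below that of controls in the groups labelled for it. Levels are given as CPM, read counts scaled to a common library size. The median Pbrm1 level was 98.0 CPM in hSS2 Pbrm1-fl tumors against 257 in controls, Arid1a was 253 against 504, Arid1b was 189 against 323, and in hSS1 Pbrm1 was 207 against 319. The fitted differences passed the adjusted threshold for Pbrm1 in hSS2 (adjusted p = 4.21e-12) and Arid1a (adjusted p = 7.03e-05), but not for Arid1b (adjusted p = 0.145) or Pbrm1 in hSS1 (adjusted p = 0.193). Arid1a goes against the label of 1 library, labelled hSS2 control replicate 9, where it was within the range of the Arid1a-fl tumors. All 6 SyS tumor markers examined were present in every group, whereas the summed level of 10 skeletal muscle genes ran from 12.5 to 44319 CPM among hSS2 controls, with medians of 3243 CPM in these, 182 CPM in Pbrm1-fl and 1320 CPM in Arid1a-fl tumors. Of the tumor markers, Sox11 was lower in Pbrm1-fl tumors than in controls (-1.40 on the log2 scale, adjusted p = 0.0195). A drop in the RNA of a gene in bulk tissue cannot be told apart from fewer cells that express it.

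The sample labels open with a number that differs for every tumor and is taken here as a mouse number, though the labels do not say what it stands for, and its range differed between the groups. All hSS2 Pbrm1-fl mice were numbered 2000 and over, all Arid1a-fl mice under 1000, and all Arid1b-fl mice 1000 to under 2000, whereas the 13 hSS2 controls held 4, 5 and 4 tumors of these ranges in that order. Fitted Hox levels differed in size between those ranges within the controls, as given further on, so the main results are also given against controls of the same range.

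Hoxa5, Hoxa6 and Hoxd1 were the members that passed the test against controls, and their promoters are shown for that reason. They are the RefSeq sequences directly before the transcription start (mouse build GRCm38.p6), 5′ to 3′ on the strand of the gene, with every CG dinucleotide in capitals. Hoxa5 (chr6:52204588-52204837, minus strand) and Hoxa6 (chr6:52208723-52208922, minus strand) are neighbours in HoxA, and Hoxd1 (chr2:74762730-74762979, plus strand) closes the anterior end of HoxD. The Hoxa6 window has 200 bases, since the GENCODE gene model starts before the RefSeq one and its transcribed bases were left out.
Hoxa5: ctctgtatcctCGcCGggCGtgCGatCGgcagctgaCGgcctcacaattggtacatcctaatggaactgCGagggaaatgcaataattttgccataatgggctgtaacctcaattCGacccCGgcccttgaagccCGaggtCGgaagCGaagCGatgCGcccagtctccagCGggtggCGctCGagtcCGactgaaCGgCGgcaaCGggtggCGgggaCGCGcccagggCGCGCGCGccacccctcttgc
Hoxa6: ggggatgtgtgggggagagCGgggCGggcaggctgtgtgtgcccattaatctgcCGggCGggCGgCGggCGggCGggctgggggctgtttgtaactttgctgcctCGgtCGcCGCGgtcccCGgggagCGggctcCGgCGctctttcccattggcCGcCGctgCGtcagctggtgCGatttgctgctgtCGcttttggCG
Hoxd1: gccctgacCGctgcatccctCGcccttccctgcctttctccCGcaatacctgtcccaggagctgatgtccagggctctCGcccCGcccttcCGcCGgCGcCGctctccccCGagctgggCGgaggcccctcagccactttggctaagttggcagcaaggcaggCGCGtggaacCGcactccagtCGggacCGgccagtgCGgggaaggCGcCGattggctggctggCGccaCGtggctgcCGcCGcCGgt
The dinucleotide CG, read the same on both strands, occurred 28 times in the Hoxa5 window, and 7.61% of all promoter windows of that length held as many. It occurred 22 times in the Hoxa6 window, which 7.33% of windows of that length matched, and 24 times in the Hoxd1 window, which 11.98% matched. Promoters were found for 22 of the 38 members, with 24 windows in all. Hoxc4 alone stood for HoxC and only Hoxb1, Hoxb4 and Hoxb8 for HoxB, the rest being HoxA and HoxD members. The windows held from 2 to 35 CG dinucleotides, with a median of 12.5 against 6 over all 32851 promoters.

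Levels between genes are given as normalized CPM per kilobase of exon, the median over a group. HoxC was the most abundant cluster in hSS2 controls. The median over its members was 19.1 CPM per kilobase, against 4.205 in HoxB, 1.204 in HoxA and 1.03 in HoxD, and 8 of the 10 highest members belonged to HoxC. Hoxc10 (38.6) and Hoxc6 (31.5), a posterior and a middle gene of the cluster, headed the list. The neighbours Hoxc11 (26.4), Hoxc8 (24.3), Hoxc12 (19.1) and Hoxc9 (17.9) followed, while the last gene of the cluster, Hoxc13, known for its role in hair and nails, was at 2.72. HoxC levels therefore did not rise or fall steadily with position but dropped at the posterior end.

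In HoxB, Hoxb6 (9.93) and Hoxb3 (7.003 CPM per kilobase) stood highest in hSS2 controls, and Hoxb9 was at 6.07. Hoxb7, next to Hoxb6, was at 0.729, and the end genes were near background. Hoxb1, the hindbrain gene at the anterior end, had a median of 0.0477, and Hoxb13, which lies apart from the others at the posterior end, was at 0 in the median control and had no read in 9 of 13. HoxA was low and level, from 0.617 for Hoxa9 to 1.98 for Hoxa13, a gene of the hand and foot plate, with Hoxa6 (1.90) next to it. HoxD was likewise low, with Hoxd8 at 2.56 and Hoxd9 at 1.72 as its highest members, and Hoxd11 (0.344), Hoxd1 (0.365), Hoxd3 (0.366) and Hoxd12 (0.370) as its lowest ones.

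**Figure D1:**
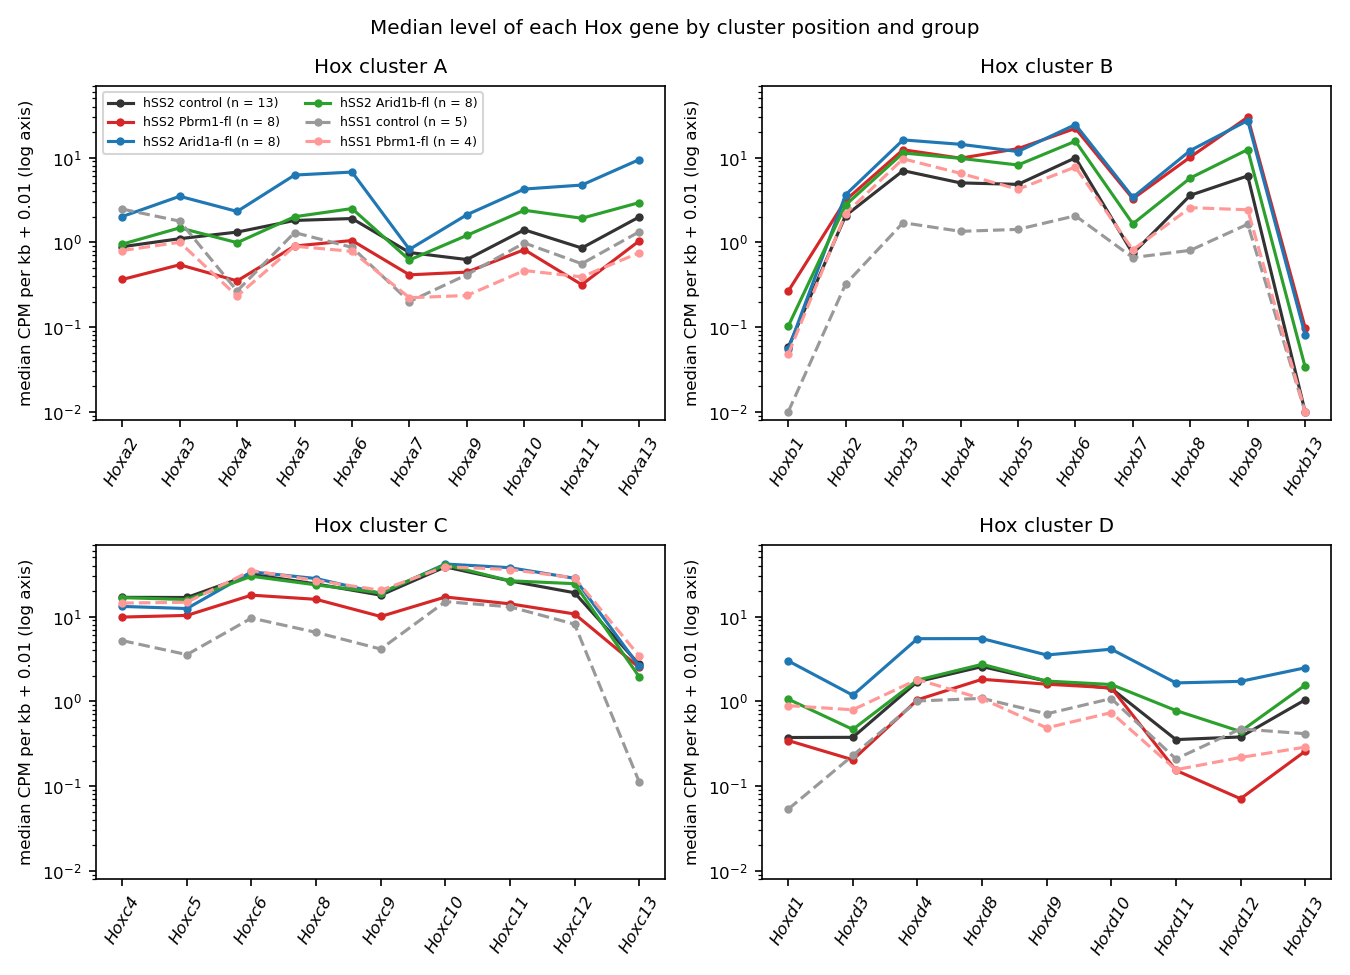
Median level of each Hox member in each of the 6 groups, by cluster and position; the y axis is normalized CPM per kilobase of exon on a log scale with a small constant added as its label gives, solid lines are hSS2 groups and dashed lines hSS1 groups. The median over HoxC members is the highest of the 4 clusters in every group, and Hoxb1, Hoxb13 and Hoxc13 fall below their neighbours.

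HoxC had the highest median of the 4 clusters in the other 5 groups too. It supplied 6 of the 10 highest members in Pbrm1-fl and Arid1a-fl tumors and 8 in Arid1b-fl tumors and in both hSS1 groups. The median over HoxC members was 10.7 CPM per kilobase in Pbrm1-fl, 28.1 in Arid1a-fl and 23.7 in Arid1b-fl tumors. HoxB came closest to it in Pbrm1-fl tumors, at 9.98, where Hoxb9 (29.95) and Hoxb6 (22.1) exceeded every HoxC member. HoxA and HoxD medians were lowest in Pbrm1-fl tumors, at 0.485 and 0.335, and highest in Arid1a-fl tumors, at 3.87 and 2.99. These are descriptions of levels, and the tests follow below.

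Individual tumors differed from each other in Hox levels far more than in most genes. Among hSS2 controls the median SD of log2 level over all 20083 genes tested was 0.487. It was 1.81 over HoxA members, 2.26 over HoxB, 1.53 over HoxC and 1.32 over HoxD. Hoxb9, on the SAT list of the study (genes that rise as cells of origin become sarcoma), ran from 2.43 to 357 CPM with a median of 15.6 in controls. It ran from 12.6 to 315 CPM (median 77.1) in Pbrm1-fl, 13.99 to 200 CPM (median 70.5) in Arid1a-fl and 20.3 to 157 CPM (median 31.99) in Arid1b-fl tumors. Controls fell into a group of 5 tumors at 88.1 CPM or more and a group of 8 at 25.1 CPM or less, while no Arid1b-fl or Arid1a-fl tumor was below 13.99 CPM; the ranges overlapped throughout.

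Hoxc10 and Hoxc6 had a narrower relative range, with the highest control 39.6 and 32.5 times the lowest, against 147 times for Hoxb9. Hoxc10 ran from 3.73 to 148 CPM (median 73.7) in controls, 7.76 to 118 CPM (32.5) in Pbrm1-fl, 14.9 to 135 CPM (79.7) in Arid1a-fl and 11.9 to 135 CPM (78.0) in Arid1b-fl tumors. Hoxc6 had medians of 75.9, 43.1, 81.2 and 72.1 CPM in the same order, with ranges that overlapped between all 4 groups. Most controls were high for both genes, and control replicates 2 and 3, at 6.12 and 3.73 CPM of Hoxc10, were the exceptions.

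**Figure D2:**
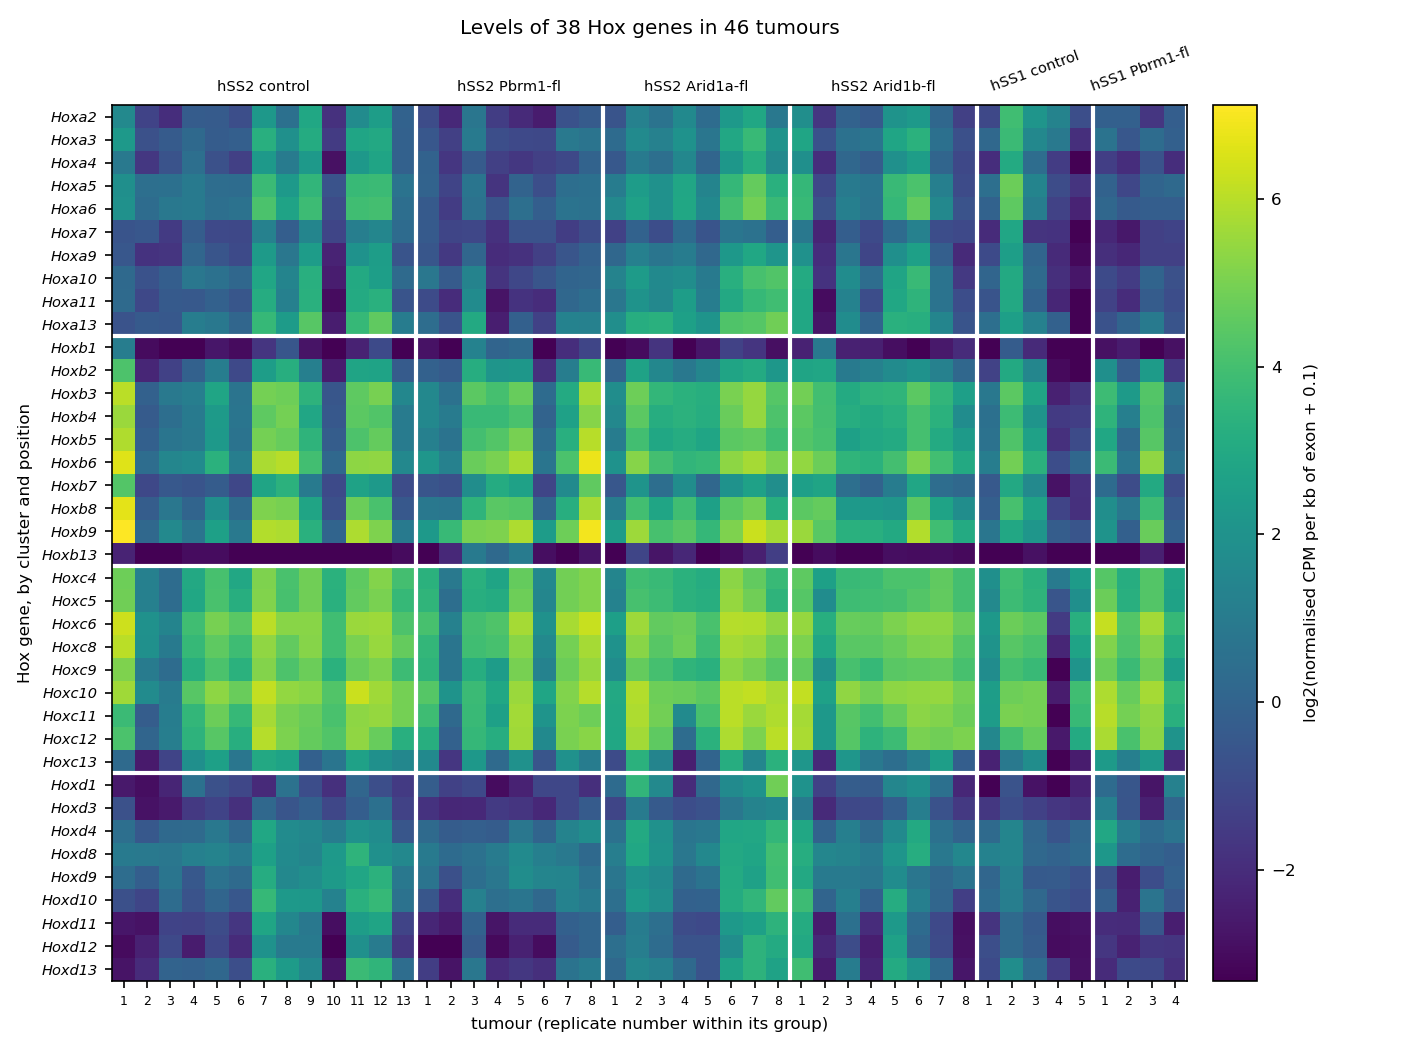
Level of the 38 Hox members (rows, by cluster and position) in each of the 46 tumors (columns, by group), as log2 of normalized CPM per kilobase plus 0.1. Members of a cluster brighten and dim together within a tumor, and the HoxC rows are bright in nearly all columns, the tumor hSS1 control replicate 4 being dark there.

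Members of a cluster moved together from tumor to tumor, and a score was taken for each cluster and tumor as the mean of log2(CPM + 0.1) over its members. In hSS2 controls the HoxA score ran from -1.03 to 4.34 with a median of 1.61, and the HoxC score from 1.71 to 6.44 with a median of 5.47. Over the 13 controls the HoxA and HoxD scores correlated with Pearson's r = 0.85 and Spearman's rho = 0.77 (r = 0.82 without the 2 tumors farthest from the median HoxA score). The other pairs of clusters had r from 0.59 to 0.75 and rho from 0.57 to 0.81. HoxA and HoxD also rose and fell together within Pbrm1-fl (r = 0.80, rho = 0.81, n = 8), Arid1a-fl (r = 0.76, rho = 0.67, n = 8) and Arid1b-fl tumors (r = 0.92, rho = 0.90, n = 8). HoxB and HoxC had r = 0.91 and rho = 0.86 in Arid1a-fl tumors, and r = -0.25 and rho = 0.19 in Arid1b-fl tumors (r = 0.61 without the 2 farthest tumors, so that value rests on them). These points share libraries, normalization and tumor content, and no test was attached to them.

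Markers of host cells moved with the scores in part. In hSS2 controls the summed level of 6 endothelial markers had r = -0.70 with both the HoxA and the HoxD score (rho -0.62 and -0.85, and r = -0.46 and -0.69 without the 2 tumors farthest from the median sum). In Pbrm1-fl tumors the skeletal muscle sum had r = -0.89 with HoxB (rho -0.88) and -0.80 with HoxC (rho -0.67). In Arid1a-fl tumors the macrophage sum had r = -0.83 with HoxA (rho -0.88). These are among the strongest pairs in their groups and did not recur in all groups. Muscle and HoxB had r = 0.24 in controls, 0.44 in Arid1a-fl and -0.14 in Arid1b-fl tumors. Muscle and HoxC had r = 0.41, 0.62 and 0.50 in the same order. Macrophage and HoxA had r = -0.16 in controls, -0.59 in Pbrm1-fl and 0.23 in Arid1b-fl tumors. Endothelial and HoxA had r = -0.83 in Pbrm1-fl, -0.78 in Arid1a-fl and 0.15 in Arid1b-fl tumors. The part of host cells in the Hox differences was not tested beyond leaving out muscle-rich tumors, given with the results.

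**Figure D3:**
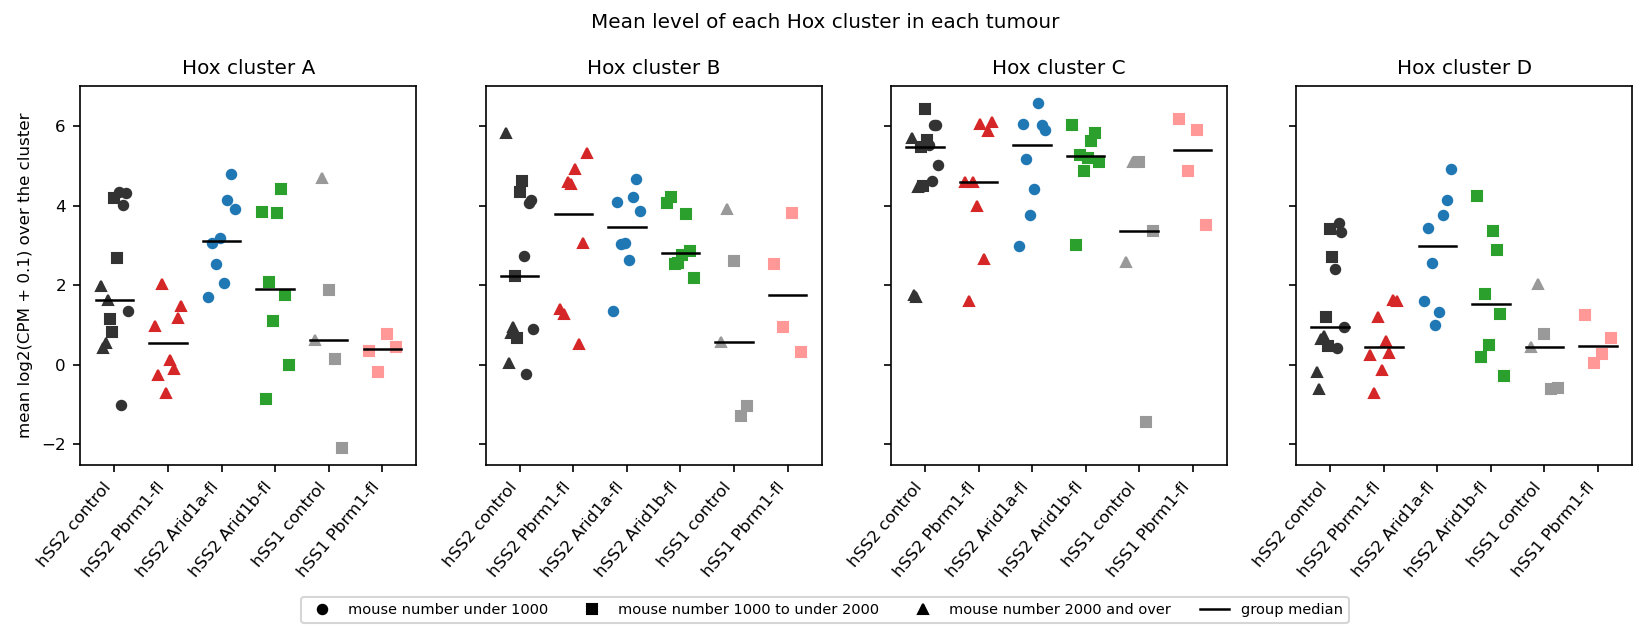
Mean log2(CPM + 0.1) over the members of each Hox cluster (y axis) for every tumor, by group. HoxA and HoxD scores of Pbrm1-fl tumors reach no higher than 2.03 and 1.64, Arid1a-fl tumors lie at 1.70 to 4.79 and 1.00 to 4.92, and controls at -1.03 to 4.34 and -0.61 to 3.57, overlapping both.

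Pbrm1 loss in hSS2 tumors was compared with controls to ask what PBAF does for these genes. Hoxa5 and Hoxa6, which pattern the cervical and thoracic axis, were lower in Pbrm1-fl tumors, and no member passed the test in the other direction. Of 37 members tested 2 were called lower and 12 had an unadjusted p under 0.05. Over all genes 7.35% were called in either direction and 3.95% lower, so the share of members called was close to the background. Over all 20083 genes tested, 4492 had an unadjusted p under 0.05. The median difference over members was -0.62 on the log2 scale, with 30 of 37 below 0, against -0.004 over all genes.

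Hoxa5 ran from 0.369 to 2.96 CPM (median 1.68) in Pbrm1-fl tumors and from 1.02 to 25.99 CPM (median 3.38) in controls. All 8 Pbrm1-fl tumors lay below the control median and 3 lay below every control, but the groups overlapped because 6 controls also lay at 2.73 CPM or less. The log2 difference in Hoxa5 was -2.59 (SE 0.74, adjusted p = 0.0270), from means of 1.64 ± 0.95 CPM (SD, n = 8) and 10.01 ± 10.3 CPM (SD, n = 13). Hoxa6 ran from 0.230 to 1.29 CPM (median 0.910) in Pbrm1-fl tumors against 0.384 to 15.7 CPM (median 1.66) in controls, a log2 difference of -2.67 (SE 0.76, adjusted p = 0.0252). Both differences in means were larger than those in medians, and 5 controls, at 8.89 CPM or more of Hoxa5 and 5.73 CPM or more of Hoxa6, were the high ones. Neither gene shares exon sequence with another annotated gene, and the median control held 55 and 27 reads of them.

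Every HoxA and HoxD member fitted lower in Pbrm1-fl tumors than in controls. The median log2 difference was -2.01 in HoxA, where 9 of 10 members had an unadjusted p under 0.05. Besides Hoxa5 and Hoxa6 these did not pass the adjusted threshold, Hoxa4 (-2.15, adjusted p = 0.0554) being the nearest. The median was -0.94 in HoxD with 3 of 9 at an unadjusted p under 0.05, where 4492 of all 20083 genes tested were. HoxC (-0.21, 9 of 9 below 0) and HoxB (0.28, 7 of 9 above 0) held no member under that p. The leading genes of the abundant clusters fitted near 0: Hoxc10 at -0.56 (SE 0.51), Hoxc6 at -0.11 (SE 0.52), Hoxb6 at 0.28 (SE 0.73) and Hoxb9 at 0.38 (SE 0.76).

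Against the 4 controls whose mouse numbers were also 2000 and over, none of the 38 members was called by edgeR (1 had an unadjusted p under 0.05), where 2.47% of all genes were. The HoxA median shrank to -0.67, with 8 of 10 members below 0, and the HoxC (0.61) and HoxD (0.62) medians were above 0. Hoxa5 fitted at -1.20 (SE 0.86, adjusted p = 0.598) and Hoxa6 at -1.12 (SE 0.88, adjusted p = 0.645). The 4 same-range controls had Hoxa5 at 6.71, 2.45, 2.54 and 3.38 CPM, and 6 of the 8 Pbrm1-fl tumors lay below the lowest of them. Leaving out tumors rich in muscle RNA (5 controls and 3 Pbrm1-fl) likewise left 0 members called, where 5.40% of all genes were. The differences were little moved, at -2.57 for Hoxa5 (adjusted p = 0.132) and -2.66 for Hoxa6 (adjusted p = 0.123).

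Within the controls themselves, tumors of mice numbered 2000 and over fitted lower in HoxA and HoxD than those numbered under 1000, without a call. The median difference was -2.05 over HoxA, -1.18 over HoxC and -2.38 over HoxD with every member of the 3 clusters below 0, and 0.72 over HoxB with every member above 0. No member was called by edgeR (14 had an unadjusted p under 0.05, a share not counted over all genes), and 1.46% of all genes were. The difference between control ranges was thus of the same order as that between Pbrm1-fl tumors and all controls in HoxA, and larger in HoxD.

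**Figure D4:**
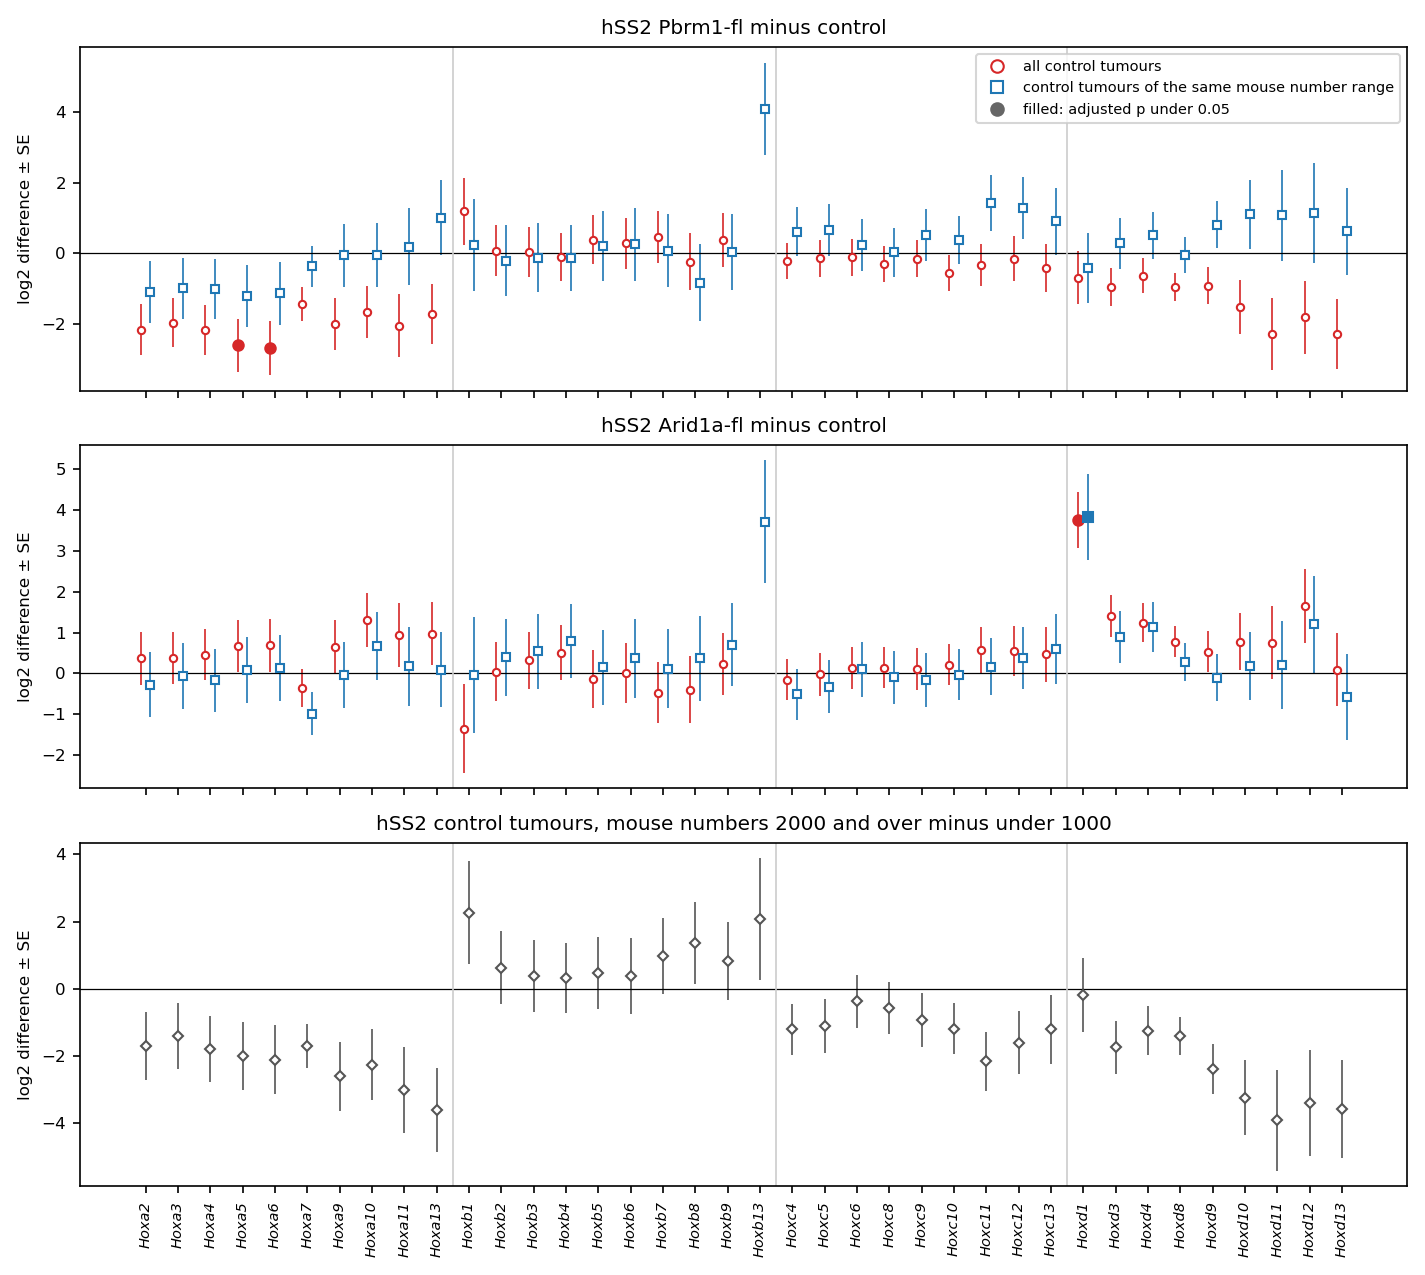
Fitted log2 difference of each Hox member (y axis, by cluster and position; bars are ± SE) for Pbrm1-fl minus control and Arid1a-fl minus control, with all controls (red circles) or controls of the same mouse number range (blue squares), and for controls numbered 2000 and over minus those under 1000; filled points have an adjusted p under 0.05. HoxA and HoxD points lie below 0 in the Pbrm1-fl panel with all controls and in the panel of controls alone, and the Hoxd1 point is filled in both sets of the Arid1a-fl panel.

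Arid1a loss in hSS2 tumors was compared with controls in the same way for CBAF. Hoxd1, the anterior end of HoxD, was higher in Arid1a-fl tumors, and it was the only member called of 37 tested (4 had an unadjusted p under 0.05). Over all genes 3.17% were called and 1.41% were higher, so 1 of 37 is near the background. An unadjusted p under 0.05 was found for 4621 of all 20083 genes, a larger share than the 4 of 37 members. Hoxd1 was 2.17, 21.8, 5.37, 0.269, 1.98, 5.78, 7.50 and 53.4 CPM in the 8 Arid1a-fl tumors, and 0.0583 to 2.64 CPM (median 0.679) in the 13 controls. Of the Arid1a-fl tumors 7 lay above the control median and 5 above every control, while replicate 4, at 0.269 CPM, lay below the median.

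The log2 difference in Hoxd1 was 3.75 (SE 0.69, adjusted p = 0.00542), from means of 12.3 ± 17.9 CPM (SD, n = 8) and 0.908 ± 0.892 CPM (SD, n = 13). Against the 5 controls of the same number range it was 3.84 (SE 1.05, adjusted p = 0.0259), where 6.8% of all genes were called, and Hoxd1 was again the only member. It remained called with each tumor left out in turn (2.82 to 3.999), the lowest being without replicate 8, and without the control library whose Arid1a level goes against its label (3.75, adjusted p = 0.0118). Without muscle-rich tumors it was 3.42 and no longer called (adjusted p = 0.287), in a fit that called 0 of 20151 genes for this comparison. Control tumors held a median of only 13 Hoxd1 reads.

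Other HoxD members fitted higher as well without passing. All 9 were above 0 with a median of 0.78, led after Hoxd1 by Hoxd3 (1.40, adjusted p = 0.0989) and Hoxd4 (1.25, adjusted p = 0.118), its neighbours in the cluster. Hoxd3 and Hoxd4 share 62.3% and 52.3% of their exon bases with other transcripts on the same strand, so their counts may be split between genes, while Hoxd1 shares none. HoxA had a median of 0.66 (9 of 10 above 0), HoxC 0.14 and HoxB 0.01. Against controls of the same range the medians were 0.29 in HoxD and 0.02 in HoxA.

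**Figure D5:**
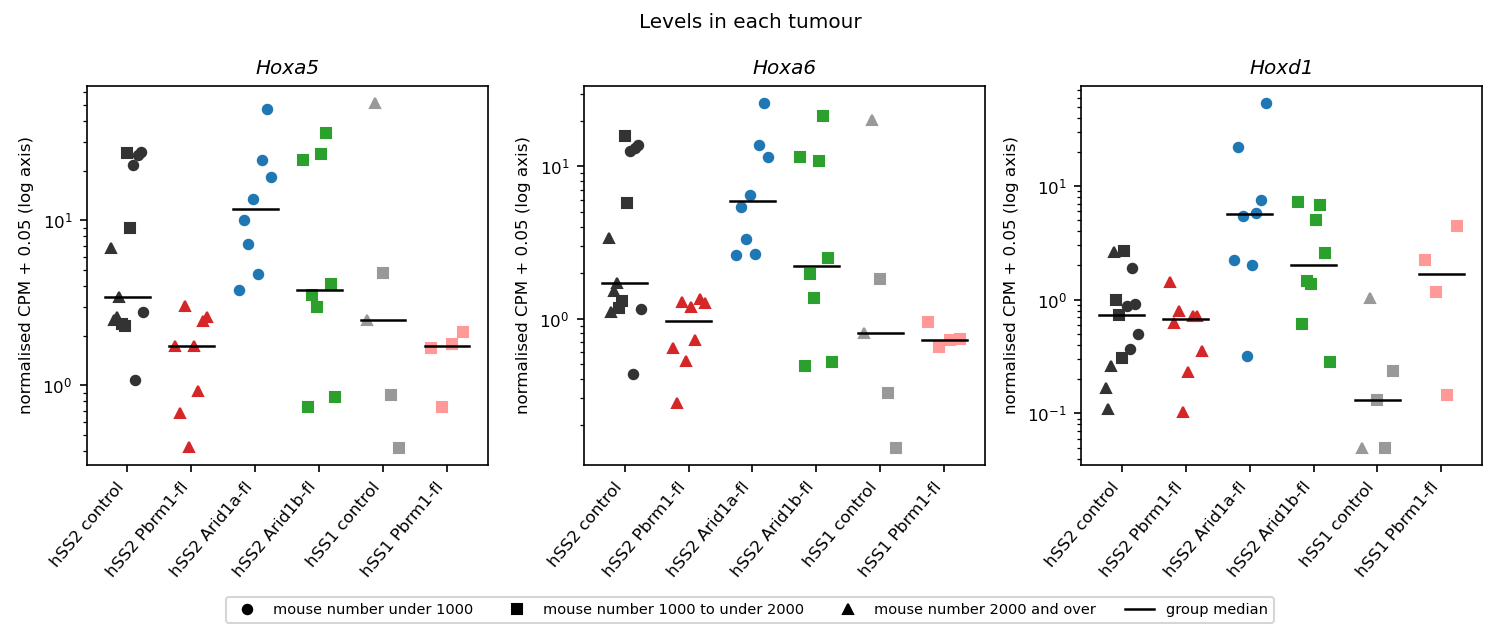
Level of Hoxa5, Hoxa6 and Hoxd1 in each tumor (y axis, normalized CPM on a log scale with a small constant added as its label gives), by group; marker shape gives the mouse number range and the bar the group median. Hoxa5 and Hoxa6 are low in all 8 hSS2 Pbrm1-fl tumors and spread widely in controls, and 5 of 8 Arid1a-fl tumors lie above every control for Hoxd1.

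For Arid1b loss no Hox gene passed the test. None of 37 members was called by edgeR or DESeq2. Only Hoxd1 had an unadjusted p under 0.05, at a log2 difference of 1.78 (SE 0.67, adjusted p = 0.697), where 1250 of all 20083 genes had one. Over all genes 0.0548% were called, so a count of 0 is the background and does not show that the members did not differ. The median over members was -0.08, and cluster medians ran from -0.33 in HoxB to 0.27 in HoxD. Arid1b-fl tumors nevertheless covered a wide range, with Hoxa5 from 0.689 to 33.8 CPM and 3 tumors above 20 CPM. Arid1a-fl and Arid1b-fl tumors differed in none of 37 members by edgeR or DESeq2, where 0.0996% of all genes were called by edgeR. An unadjusted p under 0.05 was found for 1 member and for 2517 of all 20083 genes. In Arid1a-fl tumors 33 members fitted higher, with a median of 0.47.

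The widest contrast lay between Pbrm1-fl and Arid1a-fl tumors. Of 37 members 13 were lower in Pbrm1-fl tumors, 8 of HoxA and 5 of HoxD, and none was higher, where 12.3% of all genes were called and 5.51% were lower. The median over members was -1.07, and it was -2.65 in HoxA and -2.34 in HoxD, with every member of both below 0. HoxC (-0.44) and HoxB (0.17) held no called member. The mouse numbers of these groups do not overlap, so genotype and number range cannot be told apart in this contrast.

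Hoxa5, Hoxa6 and Hoxa9 separated the groups fully. For Hoxa9 the gap was narrow, between 5.54 CPM in Pbrm1-fl replicate 3 and 5.62 CPM in Arid1a-fl replicate 1. The share of all genes that separated these groups is not given here. Hoxa5 was 3.75 to 47.2 CPM (median 11.7) in Arid1a-fl tumors against 0.369 to 2.96 CPM in Pbrm1-fl tumors, a log2 difference of -3.26 (SE 0.80, adjusted p = 0.00634). Hoxa6 was 2.58 to 25.98 CPM (median 5.90) against 0.230 to 1.29 CPM, a difference of -3.36 (SE 0.82, adjusted p = 0.00586). The strongest call by adjusted p was Hoxd1, with medians of 0.624 and 5.57 CPM and a difference of -4.43 (SE 0.87, adjusted p = 0.000955), although only 2 of 8 Pbrm1-fl tumors lay below every Arid1a-fl tumor.

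Genes of the anterior and middle parts of HoxD followed. Hoxd8 (4.97 against 15.1 CPM in the median tumor) differed by -1.72, Hoxd3 (0.815 against 4.91 CPM) by -2.34 and Hoxd4 (3.05 against 16.2 CPM) by -1.87, with adjusted p from 0.00892 to 0.0239. In HoxA, Hoxa10 (2.65 against 13.9 CPM), which patterns the lumbar axis and the upper limb segment, differed by -2.96 (adjusted p = 0.0136) and Hoxa4 (0.544 against 3.68 CPM) by -2.62 (adjusted p = 0.0197). The remaining 5, named here after their values were seen, were Hoxa2, Hoxa3, Hoxa9, Hoxa11 and Hoxd12, with differences of -2.33 to -3.45. The calls thus spanned HoxA from Hoxa2 to Hoxa11 and did not stop at 1 end of the cluster.

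When each group was set against its own controls by number range and the 2 differences were compared, 0 of 38 members were called by edgeR (1 with an unadjusted p under 0.05), where 2.18% of all genes were. The HoxA median was then -0.76, HoxD -0.06 and HoxC 0.67. Hoxd1 kept a difference of -4.25 (SE 1.38, adjusted p = 0.0831). Without muscle-rich tumors 1 of the 13 calls was left, Hoxd1 at -4.19 (adjusted p = 0.0249), where 5.93% of all genes were called. Leaving out single tumors gave 7 to 14 calls, the 7 without Arid1a-fl replicate 7.

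Against Arid1b-fl tumors, Pbrm1-fl tumors were lower in 2 members, again Hoxa5 (-2.83, SE 0.79, adjusted p = 0.0310) and Hoxa6 (-2.85, SE 0.80, adjusted p = 0.0327), where 4.37% of all genes were called and 2.72% were lower. The median Hoxa5 level was 1.68 CPM against 3.75 CPM in Arid1b-fl tumors, and the groups overlapped. The HoxD median was -1.59 with every member below 0, and that of HoxA was -2.06. This contrast and those above share the Pbrm1-fl tumors, and both genes lost the call with only these groups in the fit. Their number ranges do not overlap either. Set against controls by number range the differences were -1.47 and -1.21 (adjusted p at least 0.767 for every HoxA member), and without muscle-rich tumors adjusted p was 0.158 and 0.159.

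Hoxb13 and Hoxb1, the quiet ends of HoxB, were present in a few tumors only. Hoxb13, a gene of the tail and prostate, was at 4.19, 2.43 and 4.29 CPM in Pbrm1-fl replicates 3, 4 and 5 and at 0.287 CPM or less in the other 5, against at most 0.237 CPM in any control and 0.793 CPM in any Arid1a-fl tumor. The same 3 tumors held Hoxb1 at 5.48, 2.16 and 2.54 CPM, and control replicate 1 (4.81 CPM) and Arid1b-fl replicate 2 (4.07 CPM) were the other high ones. Hoxb13 was removed by the low-count filter in the hSS2 fit. Without the filter it was called higher in Pbrm1-fl tumors than in controls, where 3.03% of all genes were called. With controls split by number range it was tested, at 4.09 (SE 1.30, adjusted p = 0.0860) for Pbrm1-fl minus control, where 2.47% of all genes were called. Both results rest on the 3 high Pbrm1-fl tumors. Passing the filter in the second fit also depended largely on them, so neither tests the group as a whole.

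In hSS1 tumors the Pbrm1 comparison was made with 4 against 5 tumors. None of 31 members tested was called by edgeR or DESeq2, and over all genes 0.00562% were called by edgeR. An unadjusted p under 0.05 was found for 3 members and for 3059 of all 17786 genes. The cluster medians went in different directions, with HoxA at -2.20 (7 of 7 below 0), HoxC at 1.33 (9 of 9 above 0), HoxB at 0.61 (8 of 8 above 0) and HoxD at 0.20. Hoxd3 (1.81, SE 0.71, adjusted p = 0.248), Hoxa2 (-2.77, SE 1.09) and Hoxd1 (2.89, SE 1.18) led the list.

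Levels varied widely among the hSS1 controls. Hoxc10 was 10.4, 52.9, 58.3, 0.136 and 28.7 CPM in the 5 controls and 108, 48.8, 99.2 and 22.8 CPM in the 4 Pbrm1-fl tumors. Control replicate 4 was nearly devoid of HoxC, with Hoxc9, Hoxc11 and Hoxc13 at 0 reads and Hoxc4 (4.64 CPM) the highest of the cluster. Hoxa5 was 2.43, 51.3, 4.77, 0.819 and 0.369 CPM in controls against 1.62, 0.686, 1.72 and 2.05 CPM in Pbrm1-fl tumors, and control replicate 2 held the high HoxA values, Hoxa3 at 82.9 CPM among them. Against the 3 controls of the same number range the HoxA median was -0.24, that of HoxC 1.42 and that of HoxB 1.86.

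Hoxd1 in hSS1 was 0, 0.985, 0.0809, 0 and 0.184 CPM in controls against 2.16, 1.11, 0.0955 and 4.35 CPM in Pbrm1-fl tumors, so 3 of 4 lay above every control. The test of whether the Pbrm1 effect differed between fusions called 0 of 38 members by edgeR and 1 (Hoxd3) by DESeq2. Over all genes 2.9% were called by edgeR and 5.5% by DESeq2. An unadjusted p under 0.05 was found by edgeR for 3 members and for 4116 of all 21725 genes. The median Pbrm1 level was also reduced less in hSS1 Pbrm1-fl tumors, as given above, so fusion and depth of loss cannot be told apart here. Hoxd3 fitted at 2.76 (SE 0.96, adjusted p = 0.103) and Hoxd1 at 3.59 (SE 1.40, adjusted p = 0.146). HoxC members all lay above 0 (median 1.63), as did 8 of 9 HoxD members (median 1.15). With controls of the same number range 0 members were called by edgeR (1 with an unadjusted p under 0.05). The HoxC median was then 0.88 with 8 of 9 above 0, and the HoxD median turned to -0.98 with 5 of 9 below 0.

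Levels in the hSS1 and hSS2 controls are set side by side without a test, since fusion and count table coincide. Levels were scaled over the libraries of both tables together, which does not separate fusion from count table. The medians over members were 6.51 CPM per kilobase in HoxC (19.1 in hSS2), 1.07 in HoxB (4.205), 0.918 in HoxA (1.204) and 0.463 in HoxD (1.03), so lower in hSS1 in each cluster. With 5 hSS1 controls these values hang on single tumors. Without replicate 4 or without replicate 5 the HoxA median was 1.246, above that of hSS2, and that of HoxB was 2.89, and without replicate 1 or without replicate 4 that of HoxC was 11.98. Without any 1 hSS1 control the HoxB, HoxC and HoxD medians stayed below those of hSS2, HoxD at 0.326 to 0.773.

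The 8 members on the SAT list were Hoxa10, Hoxb3, Hoxb4, Hoxb9, Hoxc4, Hoxc5, Hoxc6 and Hoxd3. The study drew that list from single-cell data, and it reaches across all 4 clusters. Hoxd3 and Hoxa10 were lower in Pbrm1-fl than in Arid1a-fl tumors, as given above, where 12.3% of all genes were called and 5.51% were lower. By edgeR none of the 8 was called in the other 7 comparisons, where 0.00562% to 7.35% of all genes were, so a count of 0 is near the background. In each of those 0 or 1 had an unadjusted p under 0.05, and 2 against Arid1b-fl. DESeq2 called Hoxd3 for the difference between fusions (5.5% of all genes) and Hoxa10 against Arid1b-fl tumors (7.1% of all genes). Against controls in hSS2 Pbrm1-fl tumors their median was -0.12. Hoxc4 (-0.21, SE 0.50), Hoxc5 (-0.14, SE 0.52), Hoxb3 (0.05, SE 0.70) and Hoxb4 (-0.09, SE 0.68) fitted near 0, and Hoxd3 (-0.94, SE 0.55) and Hoxa10 (-1.66, SE 0.73) lower, all without passing.

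Long noncoding and antisense transcripts lie between the Hox genes, 28 in the 4 spans and 18 of them tested in hSS2. Haglr, a noncoding gene that starts at position 74762896 on the other strand, within the Hoxd1 window printed above, was 1.42 to 45.8 CPM (median 9.09) in Arid1a-fl tumors against 0.352 to 6.92 CPM (median 2.49) in controls, a log2 difference of 2.34 (SE 0.51, adjusted p = 0.0163), and was the 1 such transcript called there. Like its neighbour Hoxd1 it was above every control in 5 of 8 tumors. With all controls 3.17% of all genes were called. Against same-range controls Haglr was 2.17 (adjusted p = 0.0642), and without muscle-rich tumors 2.05 (adjusted p = 0.347), where 0 of 20151 genes were called. In Pbrm1-fl against Arid1a-fl tumors 8 were lower, among them Haglr (-3.27, adjusted p = 0.000833), Hoxd3os1 (-2.89, adjusted p = 0.00146), Gm28230 (-2.03, adjusted p = 0.0182), Hoxaas2 (-2.76, adjusted p = 0.0190), 9530018H14Rik (-2.96, adjusted p = 0.0269) and Hoxb5os (-3.21, adjusted p = 0.0304). Over all genes 12.3% were called in that contrast and 5.51% were lower. With controls by number range none of these 6 was called, Haglr at -2.65 (adjusted p = 0.132), Hoxd3os1 at -1.89 (adjusted p = 0.261) and Gm28230 at -0.10 (adjusted p = 0.966), and 9530018H14Rik turned to 0.042. Against controls in hSS2 Pbrm1-fl tumors none was called by edgeR, where 7.35% of all genes were. Of the 18 tested, 8 had an unadjusted p under 0.05, as had 4492 of all 20083 genes. The strand setting of the counting is not given in the sources used here, and Hoxb3, Hoxa11, Hoxb2 and Hoxa3 share 25.4% to 52.9% of their exon bases with transcripts of the opposite strand.

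Haglr lay above every hSS1 control in 3 of 4 hSS1 Pbrm1-fl tumors, at 12.4, 7.46, 0.382 and 12.98 CPM, against 0.276 to 1.82 CPM in hSS1 controls. The difference between the Pbrm1 effects of the 2 fusions was 4.35 for Haglr (adjusted p = 0.0178), 3.37 for Hoxd3os1 (adjusted p = 0.0415) and 3.26 for Gm28230 (adjusted p = 0.0472), all 3 from the HoxD span. None of the 3 passed with same-range controls (adjusted p = 0.101, 0.168 and 0.524). Among 30 fits without 1 tumor, the call was lost in 11 for Hoxd3os1 and 17 for Gm28230, and was kept in all 30 for Haglr.

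Genes that act with or before Hox genes were followed in the same fits. Over all genes 7.35% were called for Pbrm1-fl minus control and 12.3% for Pbrm1-fl minus Arid1a-fl. Of 9 TALE cofactor genes, Meis2 was lower in Pbrm1-fl tumors than in controls (-0.69, adjusted p = 0.0238, median 103 against 162 CPM), but not against same-range controls (-0.26, adjusted p = 0.732). Against Arid1a-fl tumors Meis2 was lower (-1.28) with no overlap between the groups, and Pbx4 (1.47) was higher. Set against controls by number range, these were -0.62 (adjusted p = 0.293) and 0.40 (adjusted p = 0.759). Of 12 tested upstream regulators of Hox genes, such as Cdx and retinoic acid receptor genes, none was called against controls in hSS2. For Pbrm1-fl 4 had an unadjusted p under 0.05, as had 4492 of all 20083 genes. Rarb was lower in Pbrm1-fl than in Arid1b-fl tumors (-0.78, adjusted p = 0.0417), where 4.37% of all genes were called. That call was lost in 11 of 16 fits without 1 tumor, and the difference went to -0.10 (adjusted p = 0.968) with controls by number range. Pdx1, a ParaHox gene and thus an evolutionary relative of the clusters, was higher in Pbrm1-fl tumors than in controls (2.67, adjusted p = 0.0144, median 7.48 against 1.38 CPM), and fitted at 3.89 (adjusted p = 0.0673) against same-range controls.

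Limb identity genes were in part higher in Pbrm1-fl tumors. Of 16 tested, 4 were higher than in controls and none lower, and 7 had an unadjusted p under 0.05, as had 4492 of all 20083 genes. Over all genes 7.35% were called in either direction. Msx1, a homeobox gene of the limb bud tip, had a median of 356 CPM against 90.5 CPM (1.88, adjusted p = 0.000490), and it remained higher against same-range controls (1.80, adjusted p = 0.0437). Tbx2 (1.08, adjusted p = 0.00994), Msx2 (0.85, adjusted p = 0.0328) and Tbx5 (3.001, SE 0.93, adjusted p = 0.0410) did not pass against same-range controls (adjusted p = 0.137, 0.0845 and 0.276). The Tbx5 call was lost in 12 of 21 fits without 1 tumor, and without Pbrm1-fl replicate 3 the difference was 2.28.

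Tbx5, which marks the forelimb, was 42.1, 36.1, 336, 128, 64.3, 27.7, 76.4 and 10.9 CPM in Pbrm1-fl tumors and 0.119 to 38.7 CPM (median 2.62) in controls. It separated Pbrm1-fl from Arid1a-fl tumors (0.0670 to 6.66 CPM) fully. Against Arid1a-fl tumors 6 limb genes were higher, Tbx5 (4.88), Msx1 (1.48), Tbx2 (1.17), Alx4 (3.70) and Prrx2 (1.98) by the naming rule and En1 besides, while Fgf10 was lower; the last 2 are named after their values were seen. Over all genes 12.3% were called in this contrast, in either direction. Set against controls by number range, none of the 5 named by the rule was called (adjusted p from 0.158 to 0.431). The paper describes hindlimb injection for hSS2 mice, and the labels do not say where each tumor arose. The hindlimb genes Pitx1 and Tbx4 were not called. Pitx1 had medians of 31.6 CPM in hSS2 controls, 74.4 in Pbrm1-fl, 49.5 in Arid1a-fl and 34.4 in Arid1b-fl tumors, and Tbx4 stood between 1.24 and 1.67 CPM in these groups.

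Outside the clusters, the 5 protein-coding genes on each side of each cluster gave 40 flanking genes. Against controls, 4 were called in Pbrm1-fl tumors, Igf2bp1 (3.94) and Chn1 (0.94) higher and Snx10 (-1.66) and Nfe2l2 (-0.30) lower, and 1, Chn1 (-0.997), in Arid1a-fl tumors. Over all genes 7.35% and 3.17% were called in these comparisons. The median over the 40 was -0.06 in the first comparison and 0.04 in the second, against -2.01 for HoxA in Pbrm1-fl and 0.78 for HoxD in Arid1a-fl tumors.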

How the data were processed

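Bulk RNA was sequenced from fresh frozen tumor tissue after rRNA depletion with a stranded kit. Per the labels and the submitters' processing notes, the authors aligned reads to mm10 with STAR 2.7.11 and counted them with featureCounts 1.6.3. Which annotation was counted, whether strand was used and how reads with several matches were treated are not given in the sources used here. The deposited values are raw counts per gene, in 1 table for hSS2 and 1 for hSS1, and the study tested them with DESeq2.

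From these counts, groups were compared in 8 comparisons with edgeR 4.0.16 (R 4.3.3; TMM scaling, filterByExpr, robust quasi-likelihood F-test, two-sided), in 1 fit for the 37 hSS2 libraries, 1 for the 9 hSS1 libraries and 1 for all 46 for the difference between fusions. Adjusted p is Benjamini-Hochberg over all genes tested (20083 in hSS2, 17786 in hSS1, 21725 in all), called under 0.05. Fold changes are on the log2 scale. Levels are TMM-normalized CPM; per-kilobase values divide by the exon length in GENCODE. Depth was 10137668 to 21294657 counts per library. The test was checked on simulated counts.

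The Hox members and the other gene lists were chosen with earlier results of these data known. Genes named are the members called (at most 8 a comparison, by adjusted p), the 2 highest members of each cluster in controls, members under 1 count in the median control, members on the SAT list, the targeted genes, Tbx4, Pitx1 and Tbx5, and called genes of the other lists (at most 5 a list) and spans (at most 6). Alternatives were DESeq2 1.42.0, its size factors, no low-count filter, only the groups compared, controls of the same number range, leaving out control replicate 9 and each tumor in turn, and, chosen after seeing the data, leaving out tumors with more than 5000 CPM of muscle markers.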

Additional observations from a re-analysis of the deposited data

Results flagged for a closer look

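The HoxC score (mean log2(CPM + 0.1) over the 9 members) of hSS2 Arid1b-fl replicate 2 was 3.02, while the other 7 Arid1b-fl tumors lay between 4.88 and 6.02. The gap to the nearest tumor was 0.62 of the whole range of the group. Chance flags about 1 in 20 groups by this criterion, and this was 1 of 35 tested.

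The Pbrm1 effect was called as different between hSS1 and hSS2 tumors for 5 genes outside the members (edgeR test of the difference, log2 scale, hSS1 minus hSS2). Haglr (4.35, adjusted p = 0.0178), Hoxd3os1 (3.37, adjusted p = 0.0415) and Gm28230 (3.26, adjusted p = 0.0472) lie in the HoxD span. Rarb, a retinoic acid receptor gene, was at 1.72 (adjusted p = 0.0229) and Msx1 at -2.01 (adjusted p = 0.0496). Over all genes 2.9% were called in this test. Among 30 fits without 1 tumor, the call was lost in 21 for Msx1, 17 for Gm28230, 11 for Hoxd3os1 and 3 for Rarb, and was kept in all 30 for Haglr. With controls of the same mouse number range none of the 5 was called, where 0.0389% of all genes were.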

How the results depend on the processing

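No paired analysis was possible because the labels give no number shared between tumors of different groups. The paper describes littermate controls, but the labels do not say which tumors came from the same litter, so relatedness between groups was not modelled. Against main counts of 2, 1, 0, 13 and 2 Hox members called (Pbrm1-fl minus control, Arid1a-fl minus control, the difference between fusions, Pbrm1-fl minus Arid1a-fl and minus Arid1b-fl), DESeq2 called 8, 1, 1, 17 and 7, controls of the same number range gave 0, 1, 0, 0 and 0, and leaving out muscle-rich tumors gave 0, 0, 0, 1 and 0. Over all genes, in the same order, the main fits called 7.35%, 3.17%, 2.9%, 12.3% and 4.37%. DESeq2 called 10.8%, 8.44%, 5.5%, 16.1% and 7.1%. Same-range controls gave 2.47%, 6.8%, 0.0389%, 2.18% and 0.273%, and leaving out muscle-rich tumors gave 5.40%, 0%, 1.83%, 5.93% and 3.73%. With only the groups compared in the fit, Pbrm1-fl minus Arid1b-fl gave 0 members and 2.87% of all genes. The other 3 comparisons gave 0 members under every setting. Leaving out 1 tumor at a time gave 0 to 5 (0 without Pbrm1-fl replicate 2, 5 without control replicate 3), 1, 0, 7 to 14 and 0 to 2.

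Of the other span and list genes, without the flanking genes, 6 (Pbrm1-fl minus control), 1 (Arid1a-fl minus control), 5 (between fusions), 19 and 6 were called (Pbrm1-fl minus Arid1a-fl and minus Arid1b-fl). DESeq2 gave 13 for Pbrm1-fl, 6 for Arid1a-fl and 12 for Pbrm1-fl minus Arid1b-fl, and 3 in hSS1 and 1 for Arid1a-fl minus Arid1b-fl where edgeR gave 0. Same-range controls gave 1, 1, 0, 1 and 0, without muscle-rich tumors 0 (Arid1a-fl), 1 (between fusions) and 7 (Pbrm1-fl minus Arid1a-fl), and the difference between fusions gave 2 without the filter and 3 without control replicate 9. Pbrm1-fl minus Arid1b-fl gave 3 with only those groups in the fit. Leaving out 1 tumor gave 4 to 9, 0 to 5, 1 to 6, 12 to 21 and 4 to 6. Among named genes, 9530018H14Rik turned from -2.96 to 0.042 in Pbrm1-fl minus Arid1a-fl with same-range controls (adjusted p = 0.989). The cluster medians of the levels moved by less than the spread between tumors under DESeq2 size factors and with any tumor left out. Over all genes in hSS1, DESeq2 called 1184 where edgeR called 1. The causes were not tested. Depth limits the low members, as Hoxd1 rested on a median of 13 reads in controls.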

Other observations

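Within HoxC the posterior end varied apart from the rest in some tumors. Arid1a-fl replicate 4 held Hoxc8 at 79.8 CPM and Hoxc10 at 50.3 CPM, with group medians of 79.6 and 79.7 CPM, but Hoxc11 at 6.20 CPM, Hoxc12 at 1.21 CPM and Hoxc13 at 0.202 CPM, the lowest of its group. The noncoding gene Hotair, which lies between Hoxc11 and Hoxc12, had medians of 7.60 CPM in hSS2 controls, 2.51 in Pbrm1-fl, 10.1 in Arid1a-fl and 8.34 in Arid1b-fl tumors. In the HoxB span, the transcript Gm53 had medians of 9.57 CPM in controls, 73.5 in Pbrm1-fl, 63.7 in Arid1a-fl and 24.4 in Arid1b-fl tumors, the same order of groups as Hoxb9, whose medians were 15.6, 77.1, 70.5 and 31.99 CPM. These genes were chosen after their values were seen.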
